A study of Mus musculus with 6 samples.

Results

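The 33 array probes described here, for 30 genes named for neuronal adhesion or axon guidance families, were measured in the neocortex of mice that lack the RNA-binding protein KHSRP. They were taken from 1788 probes that carry a gene symbol, out of 60915 probe names on the array. A probe was a member when its symbol began with the name of a family such as the protocadherins, cadherins, contactins, semaphorins, Slit and Robo genes or leucine-rich repeat proteins. Of 35 probes that matched, *Epha7* and *Ephx2* were set aside. The symbols were given only in a table that the study had selected for change between the genotypes on these same arrays, with 1 block of higher and 1 block of lower mRNAs. The higher block held 30 of the probes, for 27 genes, and the lower block held 3, for *Lrrtm1*, *Slit1* and *Lrrc32*. The direction of every member was therefore set by its selection, and all values between genotypes are given as a description without a test. The blocks were also cut by unlike rules, on the fold of the authors' normalized values and on the ratio of unscaled intensities. The smallest fold of a higher member was 1.2654, and no lower member had a ratio above 0.50. The blocks held 1522 and 266 entries, so 30 probes against 3 does not show which way these families moved. Genes of these families that were not in the table have no named probe and were not analysed here.

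The study asked how mRNA levels in brain depend on KHSRP, which binds AU-rich mRNAs and promotes their decay. Adult male KHSRP-KO mice, in which the gene is deleted from the germline and so from every cell type, were set against WT males of the litters that gave the KHSRP-KO mice, with 3 mice in each group and 1 array of 1 colour for each mouse. RNA came from tissue that the sample labels call cortex and adult neocortex, while the study's own table of changed mRNAs labels the same arrays PFC, and which dissection was used cannot be told from these sources. In such tissue, fewer cells of a type and less RNA per cell cannot be told apart. *Khsrp* itself has no named probe, so the genotype was not checked against it here.

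The families differ in how they act. Cadherins and protocadherins join cells through like molecules on facing membranes, and the clustered protocadherins, expressed in different combinations from neuron to neuron, give each neuron a surface identity that its own branches avoid. Semaphorins and Slits are guidance cues that steer growth cones, and Robo proteins are the receptors that read Slits. LRRTM and SLITRK proteins carry leucine-rich repeats outside the cell and organize synapses. Contactins, NCAM proteins and integrins attach axons and glia to each other or to the matrix.

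Promoter windows are shown for the pair that differed in opposite directions from 1 locus, for the guidance receptor with the widest gap between genotypes and for a protocadherin measured by 2 probes. Each runs 5′ to 3′ on the gene's strand from 250 bases before to 50 after the RefSeq start on GRCm38.p6. *Lrrtm1* lies inside the span of *Ctnna2* on the opposite strand. The windows are those of *Ctnna2* (chr6:77979618-77979917, minus strand), *Lrrtm1* (chr6:77242227-77242526, plus strand), *Robo1* (chr16:72662899-72663198, plus strand) and *Pcdh10* (chr3:45378148-45378447, plus strand). Capitals mark 3 motifs on either strand, the GC box (GGGCGG), the CCAAT box (CCAAT) and the core of the cAMP response element (TGACG).
Ctnna2: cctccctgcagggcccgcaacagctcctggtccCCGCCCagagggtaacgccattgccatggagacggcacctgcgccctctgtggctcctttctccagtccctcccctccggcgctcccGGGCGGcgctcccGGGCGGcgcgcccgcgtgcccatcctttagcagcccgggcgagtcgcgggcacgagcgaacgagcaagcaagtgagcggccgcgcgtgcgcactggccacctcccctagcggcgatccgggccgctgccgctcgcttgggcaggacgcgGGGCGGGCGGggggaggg
Lrrtm1: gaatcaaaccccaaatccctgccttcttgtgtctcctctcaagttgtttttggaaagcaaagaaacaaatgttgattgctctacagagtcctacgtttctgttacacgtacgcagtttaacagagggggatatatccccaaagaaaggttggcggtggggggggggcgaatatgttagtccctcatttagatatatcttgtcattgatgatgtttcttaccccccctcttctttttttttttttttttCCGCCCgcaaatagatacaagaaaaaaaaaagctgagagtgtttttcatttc
Robo1: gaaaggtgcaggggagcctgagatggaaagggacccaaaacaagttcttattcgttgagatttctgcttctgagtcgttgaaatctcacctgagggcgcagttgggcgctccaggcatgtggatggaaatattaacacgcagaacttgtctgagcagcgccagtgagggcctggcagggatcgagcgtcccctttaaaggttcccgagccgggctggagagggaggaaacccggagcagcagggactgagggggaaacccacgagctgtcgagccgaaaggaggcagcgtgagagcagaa
Pcdh10: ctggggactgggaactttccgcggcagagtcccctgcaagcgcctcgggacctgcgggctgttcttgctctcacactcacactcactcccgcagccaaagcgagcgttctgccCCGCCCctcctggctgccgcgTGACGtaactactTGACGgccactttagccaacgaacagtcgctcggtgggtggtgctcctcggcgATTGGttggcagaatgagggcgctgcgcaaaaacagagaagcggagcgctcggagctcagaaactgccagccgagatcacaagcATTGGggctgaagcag

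The *Ctnna2* window held 5 GC boxes, some of them overlapping, and the *Lrrtm1* window 1, whereas the *Robo1* window held none of these letters. The *Pcdh10* window held 1 GC box, 2 CCAAT boxes and 2 copies of TGACG. RefSeq windows were found for 17 of the 30 genes, 21 windows in all. The GC box stood in 38.1% of them and in 35.66% of all 32851 windows, CCAAT in 38.1% and 37.41%, and TGACG in 19.05% and 20.81%. The TATA box (TATAAA), which was searched as well, stood in 1 of the 21 windows, that of *Pcdh15*, or 4.76%, against 13.62% of all windows. The median G and C content was 60.67% in the 21 windows and 52.67% in all windows, and the median number of CpG was 13 and 7. No clustered protocadherin had a window, nor did *Cdh1*, *Slit1*, *Slitrk4*, *Lrrc32* or *Lrrcc1*, so these values leave them out. The windows of *Pcdh9* overlap almost wholly, and each of them held TGACG.

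Signals are log2 intensities relative to the 75th percentile of their own array, so a value of 0 is the brightness of that percentile and a difference of 1 is a 2-fold difference. Each value compares a probe with itself across arrays. Errors after ± are the SE of the limma fit, with 3 arrays per genotype throughout. All 33 probes were well above background on all 6 arrays. Slides were inferred here from identical scan times and not from a label. On that basis, 4 of the 6 arrays lay on slides with 1 genotype only, WT 1 and 2 on one and KHSRP-KO 2 and 3 on another, while KHSRP-KO 1 and WT 3 shared a slide. The difference between these last arrays is then the only one made within a slide, and it is given beside the others as the shared-slide difference, a name that rests on this inference.

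The 30 probes of the higher block were higher in KHSRP-KO neocortex by a median of 0.55 on the log2 scale, or 1.47-fold, with a range from 0.35 for *Sema6c* to 1.77 for 1 of the *Lrrc51* probes. The median over all probes tested was -0.0005, and over the 1450 other named probes of the higher block it was 0.56. With limma, 28 of the 30 passed an unadjusted p of 0.05 and a log2 difference of 0.32 in size, *Sema6c* and *Slitrk4* being the exceptions, against a background of 9.26% of all 48436 probes tested in that direction. All 3 probes of the lower block passed, against a background of 7.03%. Since the same contrast had chosen the probes, nothing is read from these counts. After Benjamini-Hochberg adjustment over all probes, 0 of the 33 passed, and 46 of all probes, 0.095%, did. After scaling, the 3 KHSRP-KO arrays all lay above the 3 WT arrays for 30 of 30 higher probes, where 12.4% of all probes did so. They lay below them for 2 of 3 lower probes, where 9.9% did so. The separation too is drawn from probes chosen on this contrast, and nothing is read from it. Before scaling, the genotypes overlapped for some of the higher probes, such as those of *Pcdhga5*, *Sema6c* and *Sema7a*.

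**Figure D1:**
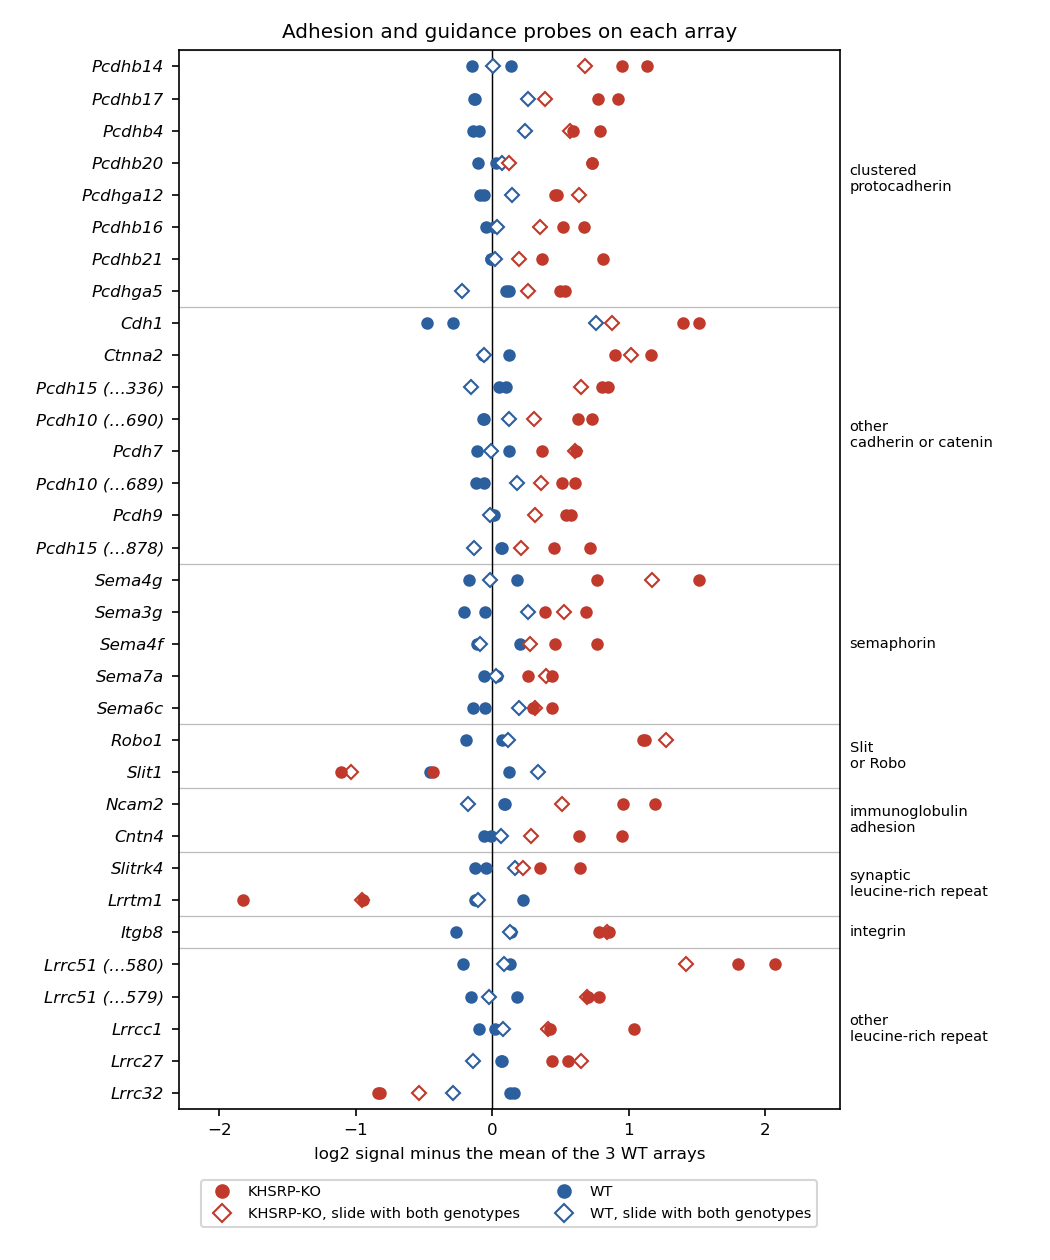
Signal of the 33 probes on each of the 6 arrays, as the log2 signal minus the mean of the 3 WT arrays, with KHSRP-KO in red, WT in blue and open diamonds for the slide that held both genotypes. Red points lie right of all blue points in 30 rows and left of them for *Lrrtm1* and *Lrrc32*, while those of *Slit1* overlap.

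The largest separation among the guidance genes was that of *Robo1*, the receptor for Slit proteins on growing axons. Its signals were -0.99, -1.14 and -1.16 on the KHSRP-KO arrays and -2.19, -2.46 and -2.15 on the WT arrays. The lowest KHSRP-KO array lay 0.99 above the highest WT array, and no array stood apart from its group. The difference was 1.17 ± 0.16 (SE, n = 3 per group), or 2.25-fold, and on the shared slide it was 1.16. With background correction by normexp, an alternative that adds an offset and so draws dim signals together, the difference over all arrays was 0.79.

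*Slit1*, which encodes a secreted ligand of Robo receptors, was in the lower block. Its signals were -1.67, -1.07 and -1.75 in KHSRP-KO and -0.52, -1.10 and -0.30 in WT. The groups overlapped, since KHSRP-KO 2 lay just above WT 2. The difference was -0.86 ± 0.27 (SE, n = 3 per group), and -1.37 on the shared slide, the largest shared-slide difference of the 33 probes in size. It passed the thresholds in 3 of the 6 fits that left out 1 array, and not without KHSRP-KO 1, KHSRP-KO 3 or WT 3. Receptor and ligand came from opposite blocks of the selected table, and the SD between arrays of a genotype was at most 0.17 for *Robo1* and up to 0.41 for *Slit1*.

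*Ctnna2*, the neuronal alpha-catenin that links cadherins to actin, gave -2.20, -2.32 and -2.06 in KHSRP-KO and -3.10, -3.29 and -3.28 in WT. All 3 KHSRP-KO arrays lay above WT by at least 0.78. The difference was 1.03 ± 0.15 (SE, n = 3 per group), or 2.04-fold, and 1.08 on the shared slide. With normexp the difference over all arrays was 0.67.

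*Lrrtm1*, a postsynaptic organizer of excitatory synapses whose gene lies within *Ctnna2*, went the other way. Its signals were 4.87, 4.87 and 3.99 in KHSRP-KO and 6.04, 5.69 and 5.72 in WT. KHSRP-KO 3 lay well below the other 2 KHSRP-KO arrays, and the groups did not overlap. The difference was -1.24 ± 0.27 (SE, n = 3 per group), so that WT was 2.36-fold higher. It was -0.85 on the shared slide and -0.95 without KHSRP-KO 3. *Ctnna2* was taken from the higher and *Lrrtm1* from the lower block, so their opposite directions were set by the selection.

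**Figure D2:**
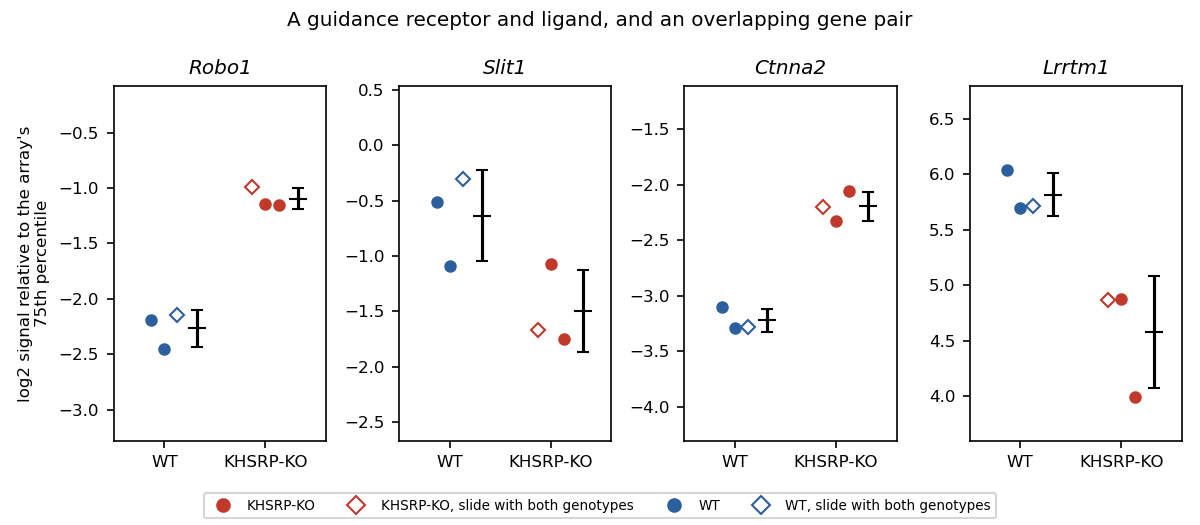
Signal of *Robo1*, *Slit1*, *Ctnna2* and *Lrrtm1* on each array, as log2 relative to the 75th percentile of the array, with the mean and SD of the 3 arrays of each genotype in black and axes of equal span. *Robo1* and *Ctnna2* were higher in every KHSRP-KO array, *Lrrtm1* was lower in every one, and the *Slit1* arrays overlap.

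The clustered protocadherins made up 8 of the 33 probes, 6 of the beta and 2 of the gamma cluster. Each cluster has 22 genes in the RefSeq table, so that most genes of both are without a named probe. By order along the cluster the beta members were *Pcdhb4*, *Pcdhb14*, *Pcdhb16*, *Pcdhb17*, *Pcdhb20* and *Pcdhb21*, with 16 and 17, and 20 and 21, as direct neighbours. Beta genes are near copies of each other, and gamma transcripts share their last exons, so a probe may read more than the gene it is named for. The 8 differences had a median of 0.53 and ran from 0.43 for *Pcdhga5* to 0.92 for *Pcdhb14*, which was 1.89-fold higher.

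*Pcdhb14* gave -3.01, -2.74 and -2.56 in KHSRP-KO and -3.56, -3.84 and -3.69 in WT. The groups lay 0.54 apart, the widest gap in the clusters. Its difference was 0.92 ± 0.18 (SE, n = 3 per group), with 0.68 on the shared slide and 0.56 with normexp. *Pcdhb17* gave 4.37, 4.76 and 4.91 in KHSRP-KO and 3.85, 3.86 and 4.25 in WT, a difference of 0.70 ± 0.21. Its highest WT array was WT 3 and its lowest KHSRP-KO array KHSRP-KO 1, which shared a slide. *Pcdhb4* gave -0.39, -0.37 and -0.17 in KHSRP-KO and -1.06, -1.10 and -0.72 in WT, a difference of 0.65 ± 0.17 with 0.33 on the shared slide. *Pcdhb16* gave 3.07, 3.24 and 3.39 in KHSRP-KO and 2.73, 2.67 and 2.76 in WT, a difference of 0.51 ± 0.15 with 0.31 on the shared slide. In both genes the 2 groups stayed apart by about the shared-slide difference.

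For *Pcdhb20*, *Pcdhb21* and *Pcdhb17* the shared-slide difference was the smallest among the clustered genes. *Pcdhb20* gave 4.10, 4.71 and 4.71 in KHSRP-KO and 4.01, 3.88 and 4.05 in WT. KHSRP-KO 1 lay 0.05 above the nearest WT array and the other 2 KHSRP-KO arrays well above it. The difference was 0.53 ± 0.21 over all arrays and 0.05 on the shared slide. For *Pcdhb21* these values were 0.46 ± 0.19 and 0.18, and without KHSRP-KO 3 its difference was 0.28. Both *Pcdhb20* and *Pcdhb21* passed the thresholds in 1 of the 6 fits that left out an array, the one without KHSRP-KO 1. For *Pcdhb17* the shared-slide difference was 0.12. The part of the slide in these differences was not tested.

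For both gamma genes the shared-slide difference was 0.49. *Pcdhga12* gave -1.68, -1.84 and -1.86 in KHSRP-KO and -2.37, -2.40 and -2.17 in WT. It is the clustered member in which KHSRP-KO 1 was the highest KHSRP-KO array, where KHSRP-KO 1 was the lowest for the other 7. Its difference was 0.52 ± 0.15 over all arrays. That of *Pcdhga5* was 0.43 ± 0.17, with WT 3 the lowest array, and it too passed without KHSRP-KO 1 alone among the 6 fits.

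Non-clustered protocadherins, adhesion molecules that lie as single genes, gave 6 probes for 4 genes. *Pcdh10*, an adhesion molecule of axons and synapses, had 2 probes for separate transcripts. Probe ASMM10P004690 gave 4.49, 4.82 and 4.92 in KHSRP-KO and 4.13, 4.12 and 4.31 in WT, and probe ASMM10P004689 gave 2.02, 2.27 and 2.18 against 1.61, 1.55 and 1.84. The probes moved alike across arrays, with KHSRP-KO 1 the lowest of its group and WT 3 the highest. Their differences were 0.56 ± 0.17 and 0.49 ± 0.16, and both were 0.18 on the shared slide.

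*Pcdh15*, a cadherin best known from the tip links of hair cells, also had 2 probes. Probe ASMM10P001336 was dim, with -4.01, -3.85 and -3.81 in KHSRP-KO and -4.61, -4.56 and -4.81 in WT, and differed by 0.77 ± 0.15. That difference was 0.34 with normexp. Probe ASMM10P053878 gave 2.78, 3.02 and 3.29 in KHSRP-KO and 2.64, 2.64 and 2.43 in WT, and differed by 0.46 ± 0.18. Both probes separated the genotypes, and the shared-slide differences were 0.80 and 0.35. *Pcdh9* gave 0.95, 1.18 and 1.21 in KHSRP-KO and 0.64, 0.65 and 0.62 in WT, a difference of 0.48 ± 0.15 with 0.33 on the shared slide. Its WT arrays had an SD of only 0.016. *Pcdh7* gave -1.64, -1.88 and -1.63 in KHSRP-KO and -2.36, -2.12 and -2.25 in WT, a difference of 0.53 ± 0.16 with 0.61 on the shared slide, so that KHSRP-KO 2 and not KHSRP-KO 1 was nearest to WT.

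*Cdh1*, the cadherin of epithelia, had the widest spread between WT arrays of all 33 probes. Its signals were 1.80, 2.32 and 2.44 in KHSRP-KO and 0.63, 0.45 and 1.69 in WT. WT 3 lay near the KHSRP-KO arrays and more than 1 log2 unit above WT 2. The difference was 1.27 ± 0.35 over all arrays but 0.12 on the shared slide, and without WT 3 it was 1.65. *Col3a1*, a collagen of meninges and vessel walls, was likewise highest in WT 3 among the WT arrays, with -2.02, -1.08 and -2.35 in KHSRP-KO and -3.60, -3.40 and -2.80 in WT, a difference of 1.45 ± 0.36 and of 0.78 on the shared slide. Its part in the *Cdh1* values was not tested.

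**Figure D3:**
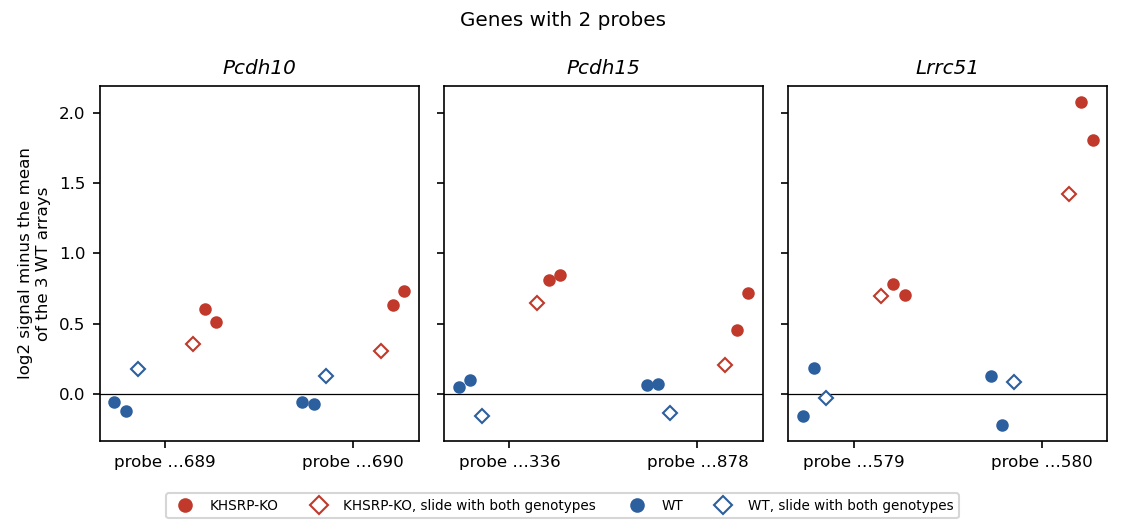
The 3 genes with 2 probes each, as the log2 signal minus the mean of the 3 WT arrays, with 1 point for each array and probes named by the last 3 digits of their identifier. Probes of *Pcdh10* lie at like heights, while one of the *Lrrc51* probes lies far above the other in KHSRP-KO.

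In all, 5 semaphorins were in the higher block, the secreted *Sema3g*, the membrane-bound *Sema4f*, *Sema4g* and *Sema6c* and the lipid-anchored *Sema7a*. Their median difference was 0.50. *Sema4g* had the largest, with -3.23, -2.89 and -3.64 in KHSRP-KO and -4.57, -4.23 and -4.42 in WT. These were dim signals, between 27.5 and 49.1 intensity units in KHSRP-KO and between 19.7 and 26.6 in WT before scaling, and the groups did not overlap on either scale. The difference was 1.15 ± 0.22 (SE, n = 3 per group) and 1.19 on the shared slide, and it was 0.39 with normexp.

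The other semaphorins differed less. *Sema3g* differed by 0.53 ± 0.18 and *Sema4f* by 0.50 ± 0.19, with 0.27 and 0.37 on the shared slide. The groups of *Sema4f* were only 0.08 apart. *Sema7a*, which promotes axon growth through integrins, ran from -1.77 to -1.60 in KHSRP-KO and from -2.09 to -1.997 in WT, and its difference of 0.37 ± 0.14 was the same on the shared slide. *Sema6c* had the smallest difference of the higher block, with -0.62, -0.63 and -0.49 in KHSRP-KO and -0.98, -1.07 and -0.73 in WT. The difference was 0.35 ± 0.16 over all arrays and 0.12 on the shared slide, and it did not pass the p threshold.

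Among adhesion molecules of the immunoglobulin family, *Ncam2* and *Cntn4*, which both take part in the wiring of sensory axons, were in the higher block. *Ncam2* gave -1.65, -1.21 and -0.97 in KHSRP-KO and -2.07, -2.07 and -2.34 in WT, a difference of 0.89 ± 0.21 with 0.69 on the shared slide. *Cntn4* gave 4.55, 4.90 and 5.22 in KHSRP-KO and 4.26, 4.21 and 4.33 in WT, a difference of 0.62 ± 0.20 with 0.22 on the shared slide. In both genes KHSRP-KO 1 was the lowest and KHSRP-KO 3 the highest of the group. The integrin subunit *Itgb8*, which pairs with the alpha v subunit and activates TGF-beta, gave -1.02, -1.01 and -1.08 in KHSRP-KO and -2.13, -1.73 and -1.74 in WT. Its KHSRP-KO arrays had the smallest SD of the 33 probes, 0.038, and its difference was 0.83 ± 0.17, with 0.72 on the shared slide.

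*Slitrk4*, a synaptic protein with repeats like those of Slits, gave 4.56, 4.68 and 4.98 in KHSRP-KO and 4.29, 4.21 and 4.50 in WT. KHSRP-KO 1 and WT 3 lay only 0.06 apart, and that is also the shared-slide difference. Over all arrays it was 0.41 ± 0.18 and did not pass the p threshold. It stood opposite to *Lrrtm1*, the other synaptic leucine-rich repeat gene, whose difference was -1.24.

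The names of 4 genes matched by the letters Lrrc alone, and these are not known as neuronal adhesion or guidance genes. *Lrrc51* had the largest difference of all, with probe ASMM10P036580 at -2.55, -1.90 and -2.17 in KHSRP-KO and -3.85, -4.19 and -3.89 in WT. The groups lay 1.29 apart, and the difference was 1.77 ± 0.21 (SE, n = 3 per group), or 3.40-fold. It was 1.33 on the shared slide and 0.90 with normexp. Its WT signals were dim, between 27.2 and 33.8 intensity units before scaling. With normexp the differences of *Cdh1*, 1.19, and *Lrrtm1*, -1.27, were larger in size, so its rank depends on the background method. The other *Lrrc51* probe, ASMM10P036579, differed by 0.73 ± 0.16, so the probes agreed in direction and not in size. The shared-slide difference of this second probe was 0.72. *Lrrcc1*, a centrosome protein, differed by 0.62 ± 0.21, with 0.33 on the shared slide and 0.42 without KHSRP-KO 3. *Lrrc27*, whose gene overlaps *Stk32c*, differed by 0.55 ± 0.15, with 0.79 on the shared slide.

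*Lrrc32*, which holds latent TGF-beta at the cell surface, was in the lower block, with 0.14, -0.15 and -0.16 in KHSRP-KO and 0.80, 0.84 and 0.39 in WT. Its difference was -0.73 ± 0.19 over all arrays and -0.25 on the shared slide. Without these 4 genes the higher block held 26 probes, of which 24 passed, with a median of 0.53.

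Across members, the difference was larger between slides than within one. On the shared slide all 30 higher probes were higher in KHSRP-KO 1 than in WT 3, with a median of 0.36 and a range from 0.05 to 1.33, and 19 reached the threshold of 0.32. Between the other arrays, each on a slide of 1 genotype, the median was 0.74, and that difference exceeded the shared-slide one in 23 of 30 probes. The 1450 other named probes of the higher block showed the same order, with medians of 0.33 and 0.70. For *Robo1* the values were 1.16 on the shared slide and 1.18 elsewhere, and for *Sema7a* both were 0.37, whereas for *Cdh1* they were 0.12 and 1.84. KHSRP-KO 1 was the lowest KHSRP-KO array for 20 of the 30, and for 71.4% of the other named higher probes against 40.1% of all probes. The shared-slide difference sets the single arrays KHSRP-KO 1 and WT 3 against each other. The other sets the mean of KHSRP-KO 2 and 3 against that of WT 1 and 2. Slide and mouse cannot be told apart here, since each mouse was measured on 1 array and so on 1 slide.

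**Figure D4:**
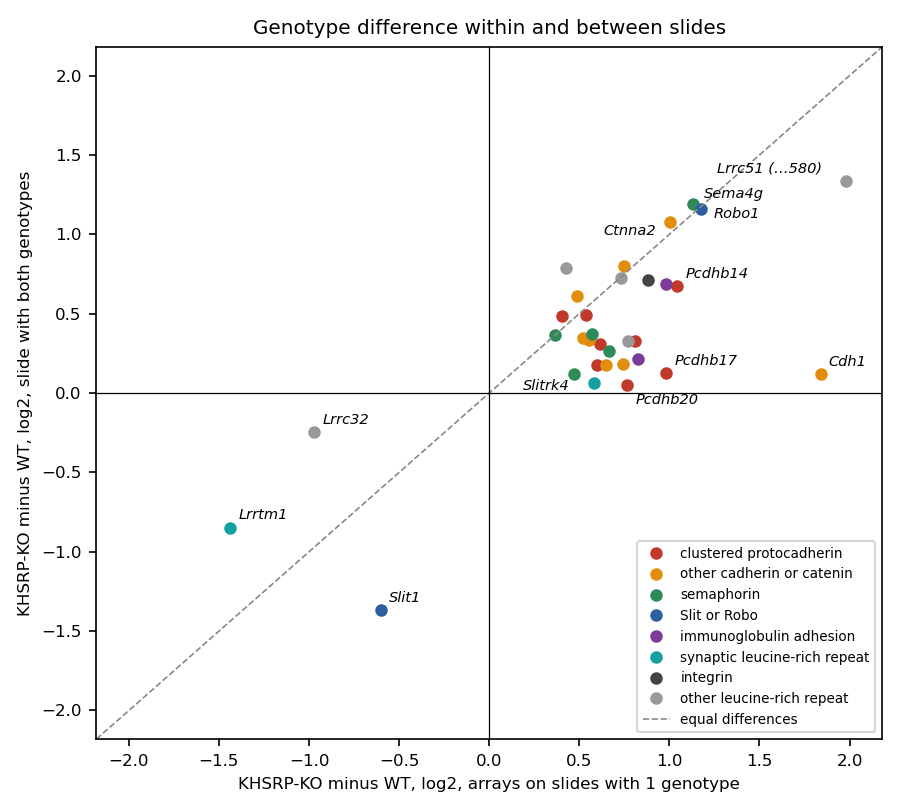
KHSRP-KO minus WT of each probe on the log2 scale, between the arrays of 1-genotype slides (x axis) and on the slide with both genotypes (y axis), coloured by role, with the dashed line where both are equal. *Robo1*, *Ctnna2* and *Sema4g* lie near the line, *Cdh1*, *Pcdhb17* and *Pcdhb20* far below it, and *Slit1* shows the larger fall on the shared slide.

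Scaling also bore on the size. Without it the median of all probes moved by -0.29. The unscaled 75th percentile was 8.46 and 8.42 on KHSRP-KO 2 and 3, and 8.92, 8.96 and 8.73 on WT 1, 2 and 3. On KHSRP-KO 1 it was 8.85, above WT 3 of the shared slide. Unscaled, the median of the 30 higher probes was 0.26 in place of 0.55. Their distance from all other probes was thus about the same, and 10 of 30 then passed. Over all probes 1221 then passed in the higher and 7287 in the lower direction, in place of 4484 and 3405. Fits that each omitted 1 of the 6 arrays passed from 16 to 28 of the 30. The 15 that passed in every such fit were the probes of *Robo1*, *Ctnna2*, *Cdh1*, *Sema4g*, *Ncam2*, *Itgb8*, *Pcdhb4*, *Pcdhb14*, *Pcdhb16*, *Pcdhb17*, *Pcdhga12*, *Lrrc27* and *Lrrc51*, with probe ASMM10P001336 of *Pcdh15*. Probe ASMM10P053878 of *Pcdh15*, *Pcdhb20*, *Pcdhb21*, *Pcdhga5*, *Sema7a* and *Sema6c* passed in 1 of the 6 fits each. The fewest passed without WT 1, 16, and without WT 2, 19, and the most without KHSRP-KO 1, 28.

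At the edges of the selection, the member with the smallest fold of the authors' normalized values in the higher block was *Slitrk4* at 1.2654. The nearest probe below the edge stood at 1.2499. Larger folds also occurred outside the block, which held 1522 probes, since 4441 of all probes passed in the higher direction with these values. In the lower block, chosen on the ratio of unscaled intensities, the member nearest the edge was *Lrrc32* at 0.50, *Lrrtm1* had the smallest ratio at 0.37, and the nearest probe outside stood at 0.50.

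Other genes of adhesion, guidance and growth cone signalling came from a list of 142, of which 16 had a named probe. Of their 19 probes, 13 were in the higher block, of which 12 passed, and 6 in the lower block, all of which passed. These probes too came from the table selected for change, so nothing is read from the counts, and the background over all probes was 9.26% and 7.03%. The giant cadherin *Fat3* differed by 0.78 ± 0.15, with 0.59 on the shared slide, and *Alcam*, an adhesion molecule of axon bundles, by 0.62 ± 0.16, with 0.31. *Fyn*, a kinase downstream of adhesion receptors, differed by 0.49 ± 0.20 but by -0.01 on the shared slide, and *Rac1*, a GTPase of growth cones, by 0.39 ± 0.20 and -0.10, without passing. *Tnn*, a tenascin of the matrix, was not well above background on any WT array and was at least 2.25-fold higher in KHSRP-KO. In the lower block, the 3 probes of *Dag1*, which encodes dystroglycan, differed by -0.86, -0.88 and -1.09, with -0.23, -0.30 and -0.33 on the shared slide. *Clstn3*, a synaptic cadherin, gave 5.29, 3.16 and 2.67 in KHSRP-KO against 5.67, 5.71 and 5.81 in WT, so that KHSRP-KO 1 lay near WT.

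Of 70 markers of 8 cell classes, 6 had a named probe. All of these probes came from the higher block of the table selected for change, so their direction was set by the selection. They leave the tissue label unchecked. *Snap25*, of neurons, differed by 0.55, with 0.33 on the shared slide. *Slc1a2* and *Fabp7*, of astrocytes, differed by 0.48 and 0.88, with 0.155 and 0.11 on the shared slide. *Drd1*, of striatal neurons, gave 3.28, 4.75 and 3.56 in KHSRP-KO and 2.68, 2.52 and 2.82 in WT, a difference of 1.19 with 0.46 on the shared slide. The 2 probes of *Foxp1*, which was only listed here under the same class, differed by 0.46 and 0.54, with 0.34 and 0.27 on the shared slide. *Drd1* was highest in KHSRP-KO 2, which was the highest KHSRP-KO array for 7 of the 30 higher members. No oligodendrocyte, microglial, endothelial or choroid plexus marker was named. The part of cell composition in the members' values was not tested.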

How the data were processed

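Neocortex RNA of 3 KHSRP-KO and 3 WT mice was hybridized in 1 colour to Agilent arrays. For each array the authors deposited scanner output from Agilent Feature Extraction 11.0.1.1. The signal used from it is an intensity with background subtracted and no scaling between arrays. They also deposited normalized log2 values, used here as an alternative. Columns of the authors' own comparisons, which hold fold changes and p-values, were not used. Gene symbols came from the study's table of changed mRNAs. The 1522 higher entries carried probe names, and their intensities equalled those of the named probes (relative tolerance 2e-05). The 266 lower entries were tied to probes by equal intensities at the same tolerance.

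Of 62939 spots per array, control spots, 300 spots named as negative controls and between 25 and 43 outlier spots were left out, and 0 were saturated. Between 71.3% and 82.6% of spots were well above background. The log2 processed signal was reduced by the 75th percentile of its array, averaged over spots of a probe name, and kept where well above background on at least 3 of 6 arrays. The 48436 probes were fitted with limma 3.58.1 (functions lmFit and eBayes; R 4.3.3), with Benjamini-Hochberg adjustment over all of them. The median residual SD was 0.245 in log2 units, and precision is limited by how many arrays there were. The fit was tested on simulated data with known changes. These data held independent noise and no slide effect, so they do not bear on slides. Arrays whose files gave an identical scan time were treated as 1 slide. Members, roles and gene lists were chosen with earlier results of these data known. The rule for named genes was to name every member and to give the genes of a fixed list by counts with examples.

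Alternatives were quantile normalization, a median shift, no scaling, the percentile taken only over probes that were above background everywhere, normexp with an offset of 50 on median spot signals, the authors' normalized values, 2 other filters, a floor of 5, the methods' t-test, the replicate number and the slide as blocks (statmod 1.5.0), each array left out and a 1.5-fold threshold. Tables were made with pandas 2.3.3 and scipy 1.17.1, figures with matplotlib 3.10.9. Promoter windows came from RefSeq tables on GRCm38.p6, and of 30 accessions of higher probes 29 were listed there under the same symbol, that of *Sema4f* being the exception. The genome build of the probe design is not given in the sources used here.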

Additional observations from a re-analysis of the deposited data

How the results depend on the processing

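Of 594 values of single members over 18 alternatives, 535 moved by less than the SD between arrays, 59 by more (29 if unscaled, 20 with slide as a fixed block, 10 with normexp), and 0 changed direction. The other filters, the floor of 5 and the replicate block could not move a member's difference. In the 32 of 33 probes without overlap, leaving out 1 array or the slide as a fixed block could not change the direction. A median shift, the other percentile and no scaling move all members by 1 common amount. The largest such move, -0.29 if unscaled, is smaller in size than the smallest difference of a member, 0.35. Nothing is read from the share of these settings in the 535 or in the 0. Of the 30 higher members, 28 passed, against 10 if unscaled, 11 with slide as a fixed block, 14 at 1.5-fold and from 16 (without WT 1) to 28 when 1 array was omitted. Of the 3 lower members, 1 passed with the slide as a fixed block, namely *Slit1*. The median of the higher members, 0.55, was 0.26 if unscaled and 0.36 with that block. With the slide as a fixed block, a member's difference is its shared-slide difference, so these values repeat those given above.

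Over all probes, the 4484 higher calls became 1221 if unscaled, 1762 with slide as a fixed block, 2728 at 1.5-fold and from 2520 to 6641 when 1 array was omitted. The 3405 lower calls became 7287 if unscaled, 1093 and 2214 with slide as a fixed and a random block, 1817 with the methods' t-test and from 1495 to 6409 when 1 array was omitted. The 46 calls after adjustment became 72 with a median shift, 23 if unscaled, 23 when every array had to be above background, 0 and 27 with slide as a fixed and a random block, 1 with the methods' t-test and from 6 to 2046 when 1 array was omitted, the highest of them without KHSRP-KO 1. The cause was not tested.

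With the replicate number as a block, 3540 probes were higher, 2668 lower and 1 passed after adjustment, and 23 higher and 3 lower members passed. The deviations of same-numbered arrays correlated at -0.33, 0.11 and -0.33. With 3 arrays per group and slide differences left in, these values cannot tell whether the numbers pair the samples. With 3 arrays per group and 1 slide of both genotypes, a slide effect and a genotype effect of this size cannot be told apart, and dim probes lose size under normexp. With groups of 3, no array was tested as an outlier.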
